A study of Tupaia belangeri with 15 samples.

Results

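The genes described here restore the photoreceptor after light: the membrane guanylate cyclases GUCY2D and GUCY2F, their activating proteins GUCA1A, GUCA1B and GUCA1C, the calcium sensor recoverin (RCVRN), the GTPase accelerator RGS9 and its membrane anchor RGS9BP. They were chosen by gene name, 8 of the 83605 features in the annotation of the tree shrew (TS, *Tupaia belangeri*), and their unique molecular identifiers (UMIs, each a captured RNA molecule) were followed through single-nucleus libraries of 15 retinas. The retinas fall into 3 stages of 5 each, Infancy, Mature and Senile, with no treatment and no genetic change. Ages ran from 1.4 to 2.1 months for Infancy, from 24.96 to 36 months for Mature and from 85.8 to 86.56 months for Senile. Senile animals came from another institute than the others, so senile stage and source cannot be told apart. The study names 5 animals a stage, and the labels do not tie a retina to an animal. The labels name Cell Ranger 5.0.1 for 7 retinas (Infancy 1 to 3, Mature 1 and 2, Senile 1 and 2) and 7.0.1 for the other 8, which splits every stage.

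Light activates an opsin, the opsin activates the G protein transducin, and transducin switches on a phosphodiesterase that destroys cyclic GMP, so that cation channels close and calcium falls. Recovery runs on 2 arms. The fall of calcium releases the cyclase activating proteins to stimulate the membrane guanylate cyclases, which rebuild cyclic GMP, while recoverin lets go of the opsin kinase. Transducin itself is shut off when RGS9, held on the disc membrane by RGS9BP and paired with the G protein subunit GNB5, speeds its hydrolysis of GTP. Inherited changes in GUCY2D, GUCA1A, RGS9 and RGS9BP are known causes of retinal disease in people. The TS is a day-active mammal with a retina rich in cones.

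Of the 8 members, 4 were well covered. GUCY2F, the other retinal membrane cyclase, and the activating proteins GUCA1A and GUCA1B were listed at 0 in all 15 matrices, as was the numbered copy GUCY2Dli1. The channel subunits CNGA1 and CNGA3 and the housekeeping genes EEF1A1 and HSP90AA1 were also listed at 0, together with 28.7% of the 27777 features that carry a TSDBGID identifier, so a 0 here is no evidence that a gene is silent. GUCA1C (TSDBGID.1243) had 57 UMIs in all barcodes. The well-covered members had 15625 UMIs for GUCY2D (TSDBGID.9543), 77800 UMIs for RCVRN (TSDBGID.10124), 93595 for RGS9 (TSDBGID.9735) and 12063 for RGS9BP (TSDBGID.15792).

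Each retina gave 4269 to 9856 barcodes and between 13429873 and 58734300 UMIs. Nuclei were put into 9 classes by marker genes, none of which is a member, and 63817 of 119765 nuclei that passed the limits received a class. Among them were 15791 cones (114 to 2253 a retina), 1019 rods and 24211 bipolar cells (BCs). The markers that chose the cones summed to 7297 to 10882 CPM in them (the UMIs of a gene scaled to a fixed total for each class and retina). Rods were marked by PDE6A, PDE6B, GNAT1, NR2E3, NRL, ESRRB and ROM1, while CNGA1 was at 0. Rods were few, 24 to 135 in 14 retinas, and Senile 1 with a single rod was left out of every rod value. The RPE list summed to 194 to 302 CPM in infant rods, almost all of it RPE65 (median of 297 CPM in rods), whereas TTR, BEST1 and PMEL had medians of 0. Of the barcodes of any pair of retinas at most 0.422% were shared.

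Membrane guanylate cyclase GUCY2D was a photoreceptor gene in this retina. In cones its level was 273, 204, 184, 86.3 and 80.2 CPM in Infancy 1 to 5, 224, 207, 113, 120 and 129 CPM in Mature 1 to 5, and 173, 360, 217, 93.5 and 103 CPM in Senile 1 to 5. The low values belong mostly to retinas labelled 7.0.1, and the 3 stages overlap. Rods followed with 43.3 to 259 CPM, with a median of 101 CPM, and BCs came next with a median of 3.95 CPM, without any overlap between rods and BCs. Below the photoreceptors the order could not be resolved, with class medians of 0 to 3.95 CPM and overlapping ranges for every pair of neighbours. Nuclei with at least 1000 UMIs were thinned to 1000 UMIs, and shallower nuclei were left out of all thinned shares. A median over retinas of 15.6% of cones and 10.6% of rods then held a GUCY2D UMI. In amacrine cells (ACs), which are not known to use it, the median was 0.113%. Without thinning, and pooled over all nuclei of a class, the shares were 48.1%, 26.3% and 0.735%. The median depth over retinas was 3533 UMIs for cones, 1947 for rods and 2757 for ACs.

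For the activating proteins only GUCA1C gave counts. Of its 57 UMIs, 52 lay in gated cones and none in any other class, so that 14 of 15 retinas had at least a UMI in cones, at 0 to 1.45 CPM. The antisense feature GUCA1C-AS-1 was far better covered, with 7194 UMIs in all barcodes. Its cone level was 37.2, 41.6, 45, 230 and 113 CPM in Infancy 1 to 5, 36.3, 37.9, 73.2, 44.3 and 51.8 CPM in Mature 1 to 5 and 56.1, 48.5, 44.6, 63.7 and 157 CPM in Senile 1 to 5. Infancy 4, Infancy 5 and Senile 5 stand above the rest, and the stages overlap. Whether counting used the strand is not stated in the sources used here, so reads of a gene and of its antisense feature may not be separable.

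Recoverin, the calcium sensor that holds back the opsin kinase in the dark, was highest in cones. Its cone level was 475, 410, 400, 429 and 380 CPM in Infancy 1 to 5, 445, 440, 474, 452 and 544 CPM in Mature 1 to 5, and 542, 520, 583, 651 and 718 CPM in Senile 1 to 5. All senile retinas lay above all infant retinas, as for 2.25% of the 9083 features with a mean of at least 10 CPM in cones. Rods held 234 to 603 CPM of RCVRN. RCVRN kept class medians of 30.6 to 100 CPM in every class outside the photoreceptors, from ganglion cells (RGCs) to microglia, and neighbouring classes in this order overlapped. RGS9 had medians of 16.8 to 77.8 CPM in these classes. The thinned share of nuclei with a RCVRN UMI was 31 to 46.5% in cones and had a median of 8.66% in BCs, 5.21% in ACs and 6.43% in Müller cells (unthinned over all nuclei 78.6, 25.1, 21.1 and 21.4%).

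RGS9, the accelerator of transducin shut-off, was the member whose order put rods on top. Rods held 1112, 865, 1094, 1811 and 1785 CPM in Infancy 1 to 5, 1490, 1061, 1547, 1633 and 1811 CPM in Mature 1 to 5 and 986, 1190, 848 and 1165 CPM in Senile 2 to 5. Cones held 926, 885, 758, 1189 and 986 CPM in Infancy 1 to 5, 959, 913, 910, 800 and 975 CPM in Mature 1 to 5 and 912, 803, 809, 571 and 917 CPM in Senile 1 to 5. The ranges of rods and cones overlap between retinas, although within a retina rods were higher in 13 of 14. Horizontal cells (HCs) came next with a median of 77.8 CPM and RGCs with 43.0 CPM, and cones stood above HCs in all 14 retinas with no overlap. From HCs down, neighbours overlapped.

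RGS9BP, the membrane anchor of RGS9, was highest in cones, at 94.9, 93.6, 88.7, 114 and 115 CPM in Infancy 1 to 5, 106, 94.5, 140, 87.1 and 136 CPM in Mature 1 to 5 and 84.2, 93.5, 84.5, 114 and 121 CPM in Senile 1 to 5. These cone values cover a narrow range, with the stages intermixed. Rods held 0 to 71.8 CPM, a range that did not reach the cones. BCs came next with 7.07 to 18.8 CPM (median 14.7 CPM), while ACs and RGCs had medians of 3.13 and 2.53 CPM. In BCs RGS9BP is known to anchor other R7 regulators of the RGS family, and the relatives RGS7 and RGS11 had BC medians of 419 and 244 CPM.

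**Figure D1:**
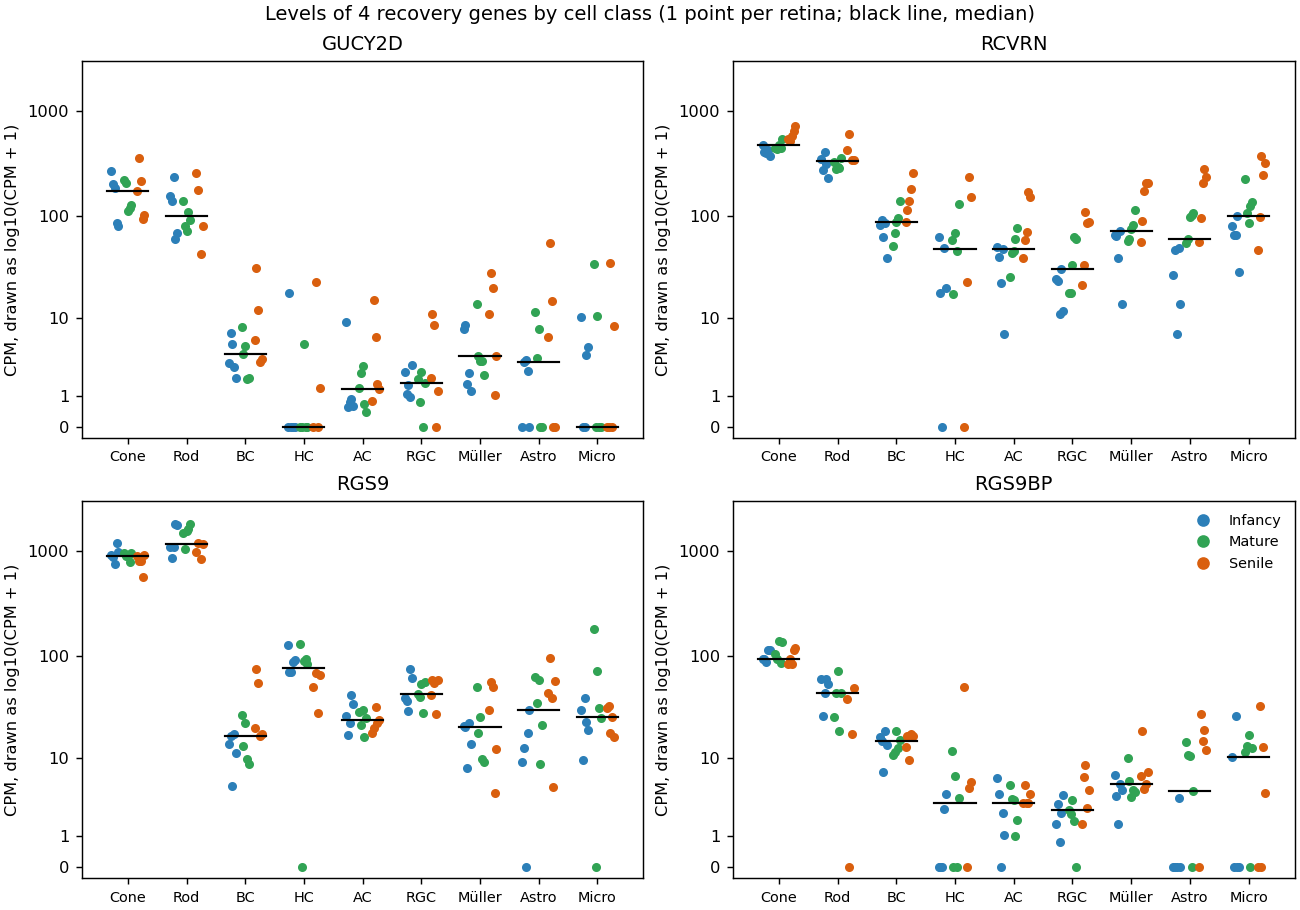
Levels of GUCY2D, RCVRN, RGS9 and RGS9BP in CPM, drawn on an axis of log10(CPM + 1), for the 9 classes (Astro, astrocytes; Micro, microglia), with 1 point per retina coloured by stage and a black line at the median. By median, cones and rods stand above the other classes for each gene, although the ranges of rods overlap some of them. For RCVRN rods overlap HCs, BCs, astrocytes and microglia, and for GUCY2D astrocytes. For RGS9BP, where the lowest rod value is 0, rods overlap all 7 classes outside the photoreceptors. Rods are on top for RGS9 with a median of 1178 CPM, and RCVRN keeps medians of 30.6 to 100 CPM in the 7 classes outside the photoreceptors.

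Each member with counts was compared between cones and the 8 other classes within retinas, by 2-sided exact sign-flip permutation over retinas on log2(CPM + 1). All p-values of this test are adjusted over all features with a mean of at least 10 CPM in both classes together, which leaves out GUCA1C. All 32 comparisons of the well-covered members passed, and cones were higher in every one except that of RGS9 with rods. Of all features, 19.7% were called higher in cones than in rods (17% lower), 42.8% than in BCs, 39.2% than in HCs, 41.1% than in ACs, 42.9% than in RGCs, 42.2% than in Müller cells, 37.4% than in astrocytes and 29.6% than in microglia, so a single call is not unusual. Cones exceeded BCs by 4.76 ± 0.63 (SD, n = 15) on the log2 scale for GUCY2D, 2.35 ± 0.46 for RCVRN, 5.57 ± 0.97 for RGS9 and 2.82 ± 0.30 for RGS9BP, each in all 15 retinas (adjusted p = 0.000115 by the exact permutation test). The unadjusted p behind it, 6.1e-05, is the smallest that 15 retinas allow.

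The question how the recovery arm differs between rods and cones was put to the summed counts with the retina as a block. Of 9119 features tested with edgeR's quasi-likelihood test, 42.4% passed an adjusted p of 0.05 between rods and cones (21.3% higher in rods, 21.1% lower), so a call for a member is not unusual in itself. All 4 well-covered members passed. RGS9 was higher in rods, by 0.48 ± 0.08 (SE) on the log2 scale (adjusted p = 1.83e-05). RCVRN was lower in rods by a log2 fold change of -0.61 ± 0.08 (adjusted p = 3.54e-07), GUCY2D by -0.55 ± 0.11 (adjusted p = 0.000103) and RGS9BP by -1.39 ± 0.14 (adjusted p = 2.47e-09). The catalyst RGS9 and its anchor RGS9BP thus differed in opposite directions between the classes. With no filter on low counts the scaling moved the median of all genes by -0.39, and RGS9 then differed by 0.07 (adjusted p = 0.614), while the other 3 kept their direction and their call.

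Within retinas the picture was close to that of the fit. RGS9BP was lower in rods in 14 of 14 retinas, by 1.77 ± 1.45 on the log2(CPM + 1) scale (SD; adjusted p = 0.000893, exact sign-flip permutation), a mean enlarged by Senile 3 with 0 RGS9BP UMIs in its 24 rods. GUCY2D was lower in rods in 13 of 14 retinas (0.51 ± 0.42, adjusted p = 0.00351) and RCVRN in 12 of 14 (0.52 ± 0.31, adjusted p = 0.0025), both by the exact permutation test. RGS9 was higher in rods in 13 of 14 (0.54 ± 0.30, adjusted p = 0.00146, exact permutation test). All 4 kept their direction within both version labels, with cones minus rods at 0.57 within 5.0.1 and 0.46 within 7.0.1 for GUCY2D, 0.39 and 0.62 for RCVRN, -0.32 and -0.70 for RGS9, and 1.29 and 2.13 for RGS9BP. Within 5.0.1 the first 3 did not pass even when adjusted over the members alone. The summed level of cone markers in rods was 221 to 665 CPM in Infancy, 258 to 629 CPM in Mature and 595 to 874 CPM in Senile, against 7297 to 10882 CPM in cones. It may not measure cone RNA alone, since it includes GRK7, with medians of 124 CPM in rods, 394 CPM in cones and 4.63 CPM in BCs. ARR3 had medians of 161 CPM in rods and 5164 CPM in cones. The part of cone RNA in the RCVRN, GUCY2D and RGS9BP levels of rods was not tested.

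Among other features that carry a member's name, GUCA1C-AS-1 was lower in rods by a log2 fold change of -5.26 ± 0.41 (adjusted p = 1.49e-11, edgeR). RGS9-AS-2, an antisense feature at RGS9, was higher in rods by 0.63 ± 0.19 (adjusted p = 0.00802), the same direction as RGS9. GUCY2D-AS-2 differed by -0.38 ± 0.21 and did not pass (adjusted p = 0.151).

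**Figure D2:**
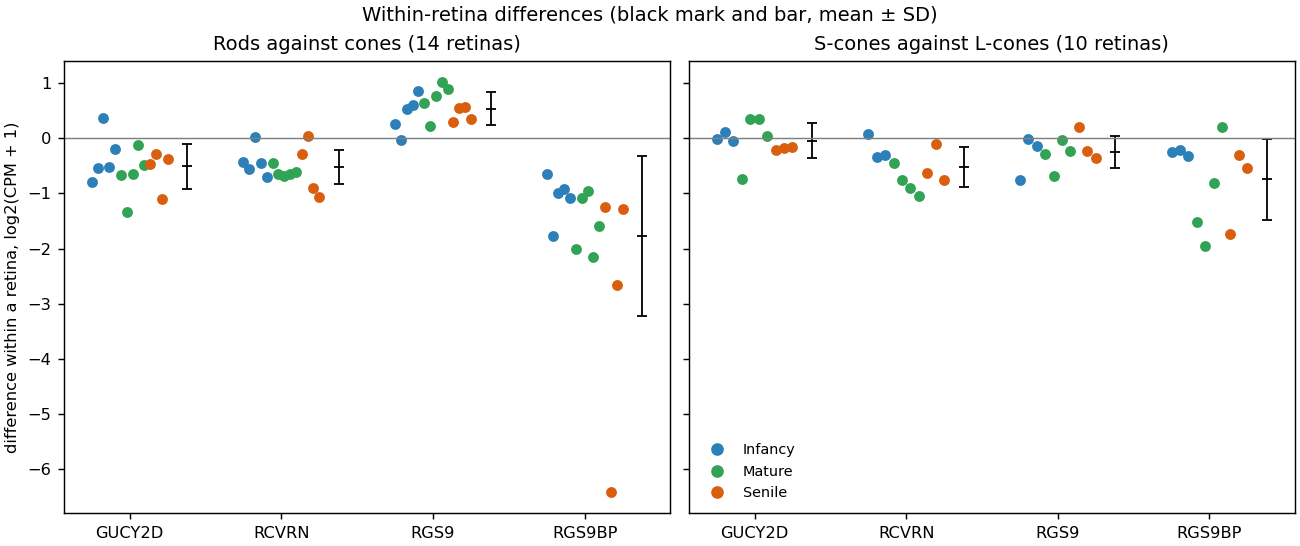
Differences within a retina on the log2(CPM + 1) scale, rods minus cones in 14 retinas on the left and S-cones minus L-cones in 10 retinas on the right, with 1 point per retina coloured by stage and a black mark and bar for mean ± SD. RGS9 lies above 0 in 13 of 14 retinas and RGS9BP below 0 in all 14 on the left, where the lowest RGS9BP point is Senile 3 with no UMI in its rods, and GUCY2D is centred on 0 on the right.

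The TS has short-wave cones (S-cones, opsin OPN1SW) and long-wave cones (L-cones, opsin OPN1LW). S-cones were rare, 224 nuclei against 9582 L-cones, and 10 retinas held at least 10 of them. RCVRN was lower in S-cones in 9 of these 10 retinas, Infancy 2 being the exception, with means of 345 and 488 CPM (difference of -0.52 ± 0.36 SD on the log2(CPM + 1) scale, unadjusted p = 0.00391, exact sign-flip permutation test). Adjusted over 9074 features, of which 4.53% passed (2.46% lower in S-cones), it missed the threshold (adjusted p = 0.0631). RGS9BP was lower in 9 of 10, with means of 69.7 and 106 CPM (-0.74 ± 0.74, adjusted p = 0.0804, exact permutation test). RGS9 was lower in 9 of 10, with means of 824 and 961 CPM (-0.25 ± 0.29, adjusted p = 0.148, exact permutation test). GUCY2D had means of 150 and 155 CPM and was lower in S-cones in 6 of 10 (-0.04 ± 0.31, adjusted p = 0.84, exact permutation test). No member thus passed between the cone types. In these 10 retinas the median depth was 5643 UMIs for S-cones and 5648 UMIs for L-cones. After thinning to 1000 UMIs, the share of S-cones with a RCVRN UMI minus that of L-cones was -9.18 percentage points, with -6.4 points for RGS9 and -3.28 points for RGS9BP. Within the label 5.0.1, with 4 retinas, the differences on the log2(CPM + 1) scale were -0.44 for RCVRN, -0.38 for RGS9 and -1.36 for RGS9BP. Within 7.0.1, with 6 retinas, they were -0.57, -0.17 and -0.33.

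In bipolar cells the ON and OFF pathways could hardly be compared, since only 142 nuclei met the OFF gate and 5 retinas held at least 10 of them. ON cells were marked by ISL1, GRM6 and TRPM1 and OFF cells by GRIK1 and VSX1. GRIK1 had only 32 UMIs in all barcodes, so the OFF gate rested almost wholly on VSX1. RCVRN had means of 88.6 CPM in ON and 153 CPM in OFF cells, lower in ON in 4 of 5 retinas. No member passed, and with 5 retinas the exact test cannot go below p = 0.0625.

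Stage was then compared within cones, with the version label in the model. Of 16059 features tested, 1.83% passed between Senile and Infancy (241 higher, 53 lower) and 1.37% between Mature and Infancy, while 0% passed between Senile and Mature (edgeR, against 67 features with DESeq2 and 1380 below 0.05 before adjustment). None of the 4 tested members passed in any of these contrasts.

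RCVRN came closest. Its cone mean was 419 ± 36.3 CPM in Infancy, 471 ± 43.0 CPM in Mature and 603 ± 81.6 CPM in Senile (SD, n = 5 each). Senile and Infancy did not overlap, which held for 2.63% of the 9083 features with a mean of at least 10 CPM in cones (2.25% with Senile above), and Senile overlapped Mature only through Mature 5 (544 CPM), above Senile 1 (542 CPM) and Senile 2 (520 CPM). The log2 fold change from Infancy to Senile was 0.42 ± 0.11 (SE) and missed the threshold with edgeR (adjusted p = 0.0767), whereas DESeq2 gave 0.41 with an adjusted p of 0.0204. Leaving out single retinas moved the edgeR value between 0.35 and 0.48 and the adjusted p between 0.0395 and 0.266, and only the fit without Infancy 1 passed. Within the retinas labelled 5.0.1 the infant cones held 400 to 475 CPM and the senile cones 520 to 542 CPM, and within those labelled 7.0.1 they held 380 to 429 and 583 to 718 CPM. That the groups were apart under each label follows from the lack of overlap over all retinas and adds nothing to it. The thinned share of cones with a RCVRN UMI was 31 to 37.4% in Infancy, 34.9 to 41.8% in Mature and 40.4 to 46.5% in Senile. Senile 4 and Senile 5 had the highest RCVRN in cones and also the highest mitochondrial share there, 0.158% and 0.222%, with Infancy 4 next at 0.113%. A link between the 2 was not tested.

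RGS9 and its anchor did not follow RCVRN. RGS9 in cones had means of 949 ± 158 CPM in Infancy, 912 ± 68.2 CPM in Mature and 802 ± 140 CPM in Senile, a log2 fold change from Infancy to Senile of -0.33 ± 0.13 that did not pass (edgeR adjusted p = 0.393). RGS9BP had means of 101 ± 12.4, 113 ± 24.1 and 99.4 ± 17.0 CPM (-0.15 ± 0.14, adjusted p = 0.841). GUCY2D had means of 165 ± 82.0, 159 ± 52.4 and 190 ± 108 CPM, and its log2 fold change of 0.39 ± 0.23 did not pass (adjusted p = 0.643), with 0.57 without Senile 1, 0.21 without Senile 2 and 0.17 without Senile 3. The stages overlap for all 3 genes. For GUCA1C-AS-1 the difference between Mature and Infancy was -0.90 ± 0.35 (adjusted p = 0.332), and it passed only with no filter on low counts (adjusted p = 0.000199).

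**Figure D3:**
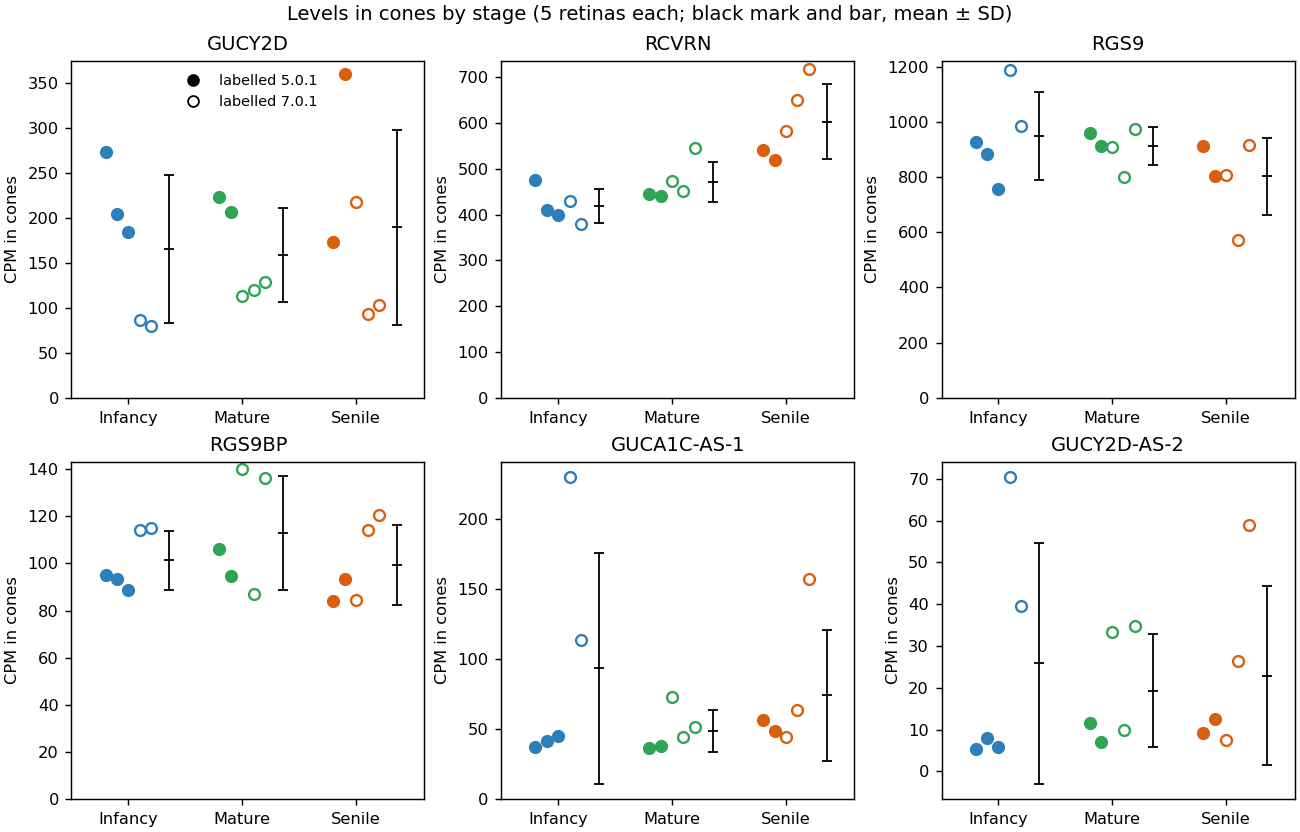
Levels in cones in CPM by stage for 4 members and 2 antisense features, with 1 point per retina, filled for the label 5.0.1 and open for 7.0.1, and a black mark and bar for mean ± SD of 5 retinas. Senile RCVRN values of 520 to 718 CPM all lie above the infant values of 380 to 475 CPM, whereas GUCY2D and GUCY2D-AS-2 differ between filled and open points. Of the 9083 features with a mean of at least 10 CPM in cones, 2.25% had all senile above all infant retinas.

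GUCY2D differed between the version labels. In cones GUCY2D was lower in retinas labelled 7.0.1 (118 ± 43.6 CPM, n = 8) than in those labelled 5.0.1 (232 ± 65.1 CPM, n = 7), a log2 fold change of -1.14 ± 0.19 (edgeR adjusted p = 0.00102), in a contrast in which 28.7% of features passed. In rods the difference was -1.02 ± 0.28 (adjusted p = 0.0482, 4.95% of features called). Whether reads on introns were counted, which bears on any level in nuclei, is not stated for either label in the sources used here. Its antisense feature went the other way, with GUCY2D-AS-2 higher under 7.0.1 by 1.95 ± 0.41 (adjusted p = 0.00366), as were GUCA1C-AS-1 by 1.09 ± 0.29 (adjusted p = 0.0114) and RGS9-AS-2 by 1.52 ± 0.30 (adjusted p = 0.00235). RCVRN (0.05 ± 0.09, adjusted p = 0.711), RGS9 (-0.03 ± 0.11, adjusted p = 0.852) and RGS9BP (0.21 ± 0.12, adjusted p = 0.182) did not pass between the labels in cones. Mature 4 and Senile 3 stood apart from the other retinas labelled 7.0.1, with 9.88 and 7.43 CPM of GUCY2D-AS-2 in cones where the other 6 held 26.3 to 70.3 CPM and those labelled 5.0.1 held 5.35 to 12.6 CPM. Without these 2 retinas RCVRN differed between Senile and Infancy by 0.44 (adjusted p = 0.0666), and no member passed by stage in cones.

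RCVRN was also higher in Senile than in Infancy outside the photoreceptors, on average. The log2 fold change was positive in all 9 classes and passed in 1, the astrocytes (2.15 ± 0.41, edgeR adjusted p = 0.0293), where 0.304% of 5591 features passed. Astrocytes, with 26 to 160 nuclei a retina, held 6.69 to 49.3 CPM of RCVRN in Infancy, 54.8 to 107 CPM in Mature and 56.5 to 284 CPM in Senile. Cone markers moved with it, at 53.5 to 227 CPM in infant, 104 to 692 CPM in mature and 356 to 1063 CPM in senile astrocytes. They summed to 85 to 228 CPM in infant and 235 to 669 CPM in senile Müller cells, with medians of 137 and 438 CPM in BCs, 118 and 231 CPM in ACs and 159 and 560 CPM in microglia. The part of cone RNA in the RCVRN of these classes was not tested. In BCs the difference was 0.85 ± 0.30 (adjusted p = 0.251), in ACs 1.29 ± 0.49 (adjusted p = 0.416), in RGCs 1.07 ± 0.34 (adjusted p = 0.267) and in Müller cells 1.28 ± 0.41 (adjusted p = 0.255). BCs held 82.9, 92.0, 63.0, 86.0 and 39.5 CPM in Infancy, 51.2, 69.6, 87.1, 97.2 and 139 CPM in Mature and 87.7, 115, 138, 182 and 257 CPM in Senile, with Senile 1 inside the infant range. The share of features called between Senile and Infancy was 1.63% in BCs, 0.925% in Müller cells, 1.18% in ACs, 1.09% in RGCs, 0.0573% in HCs and 0% in microglia.

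Counted per nucleus, RCVRN differed little between the classes outside the photoreceptors in many retinas. BCs, ACs, RGCs and Müller cells held 0.122 to 0.153 UMIs a nucleus in Infancy 1, 0.448 to 0.572 in Senile 4 and 0.851 to 0.986 in Senile 5, although the depth of these classes differs. The classes were further apart in others, with 0.0425 to 0.166 UMIs in Infancy 5 and 0.245 to 0.791 in Senile 3. Cones of Infancy 1, Senile 4 and Senile 5 held 1.85, 2.51 and 4.93 UMIs a nucleus. The mean level of ACs and Müller cells amounted to 1.42 to 10.5% of the cone level in the infant and mature retinas, to 6.01 and 9.22% in Senile 1 and 2, and to 13.3, 19.0 and 17.8% in Senile 3, 4 and 5. The level of ACs and Müller cells relative to cones was thus highest in Senile 3 to 5. This was not particular to RCVRN. For PDE6H, a cone phosphodiesterase subunit, it was also highest there, at 14.2, 8.59 and 8.66%. ARR3 did not share this order, with 2.35% in Senile 2 and 2.00% in Senile 5.

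The ratio to another cone gene gave a further measure. For every 100 UMIs of ARR3, the cone arrestin, cones held 6.66 to 14.6 RCVRN UMIs (median 8.39), whereas the median was 107 in BCs, 83.8 in ACs and 87.7 in Müller cells. RCVRN outside cones was thus accompanied by less ARR3 than in cones. The cone gene PDE6H behaved in a similar way. Outside the photoreceptors PDE6H had medians of 26.8 CPM in RGCs to 101 CPM in microglia, against 821 CPM in cones. ARR3 had 59.7 CPM in RGCs to 182 CPM in microglia, against 5164 CPM in cones. A high ratio to ARR3 is thus not particular to RCVRN. In rods, which make little ARR3, the median ratio was 201.

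When the AC and Müller level per nucleus was taken off in each retina, an alternative chosen after seeing the data, cone RCVRN was 391 ± 29.7 CPM in Infancy, 430 ± 36.2 CPM in Mature and 521 ± 43.9 CPM in Senile. In rods the same step left 266 ± 175 CPM in Senile (n = 4) and 264 ± 61.3 CPM in Infancy (n = 5). In BCs it left 27.9 ± 9 and 21.3 ± 5.59 CPM (n = 5 each). These values are a description, and no test is read from them.

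**Figure D4:**
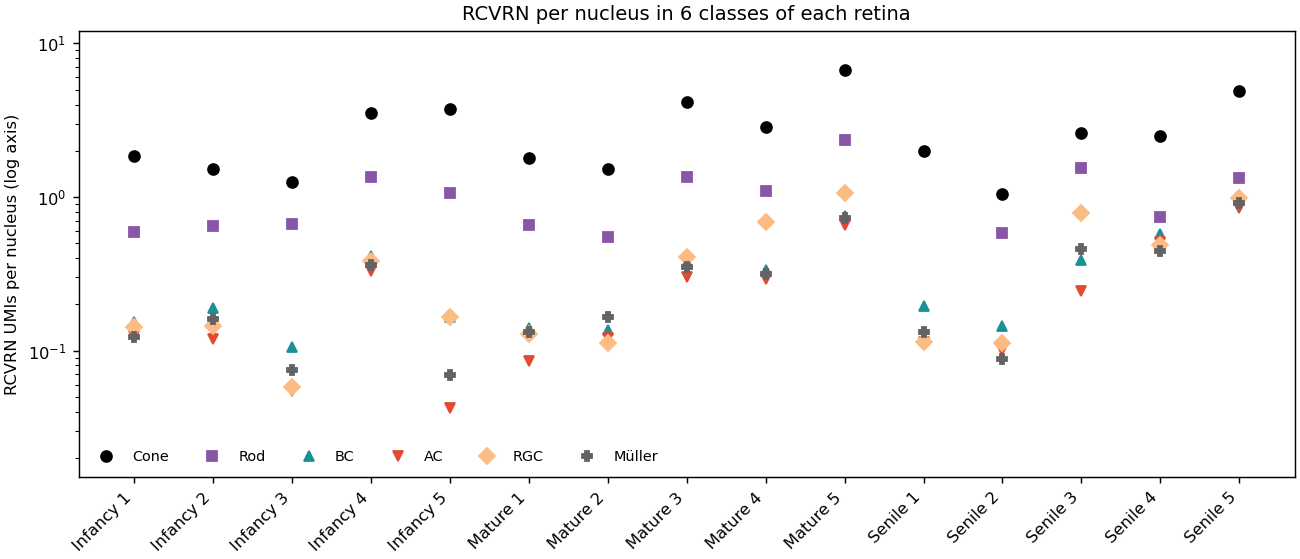
RCVRN UMIs per nucleus, on a log axis, in cones, rods, BCs, ACs, RGCs and Müller cells of each of the 15 retinas (Senile 1 without rods). The 4 classes outside the photoreceptors lie close together in most retinas and move jointly between retinas, from 0.0425 UMIs in the ACs of Infancy 5 to 1.06 in the RGCs of Mature 5, below rods and cones.

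In rods no member passed by stage, in contrasts where 0.877% (Senile against Infancy), 0.258% (Mature against Infancy) and 0.0516% (Senile against Mature) of 3877 features did. RCVRN had rod means of 317 ± 65.8 CPM in Infancy (n = 5), 310 ± 32.1 CPM in Mature (n = 5) and 430 ± 122 CPM in Senile (n = 4), and its log2 fold change from Infancy to Senile was 0.42 ± 0.22 (edgeR adjusted p = 0.469). RGS9 had means of 1333 ± 435, 1508 ± 278 and 1047 ± 161 CPM, with a log2 fold change of -0.53 ± 0.18 (adjusted p = 0.201). With no filter on low counts RGS9 fell by 0.80 (adjusted p = 0.00999), where the scaling moved the median of all genes by -0.25. GUCY2D differed by 0.33 ± 0.37 (adjusted p = 0.813), and RGS9BP, with 0 to 44 UMIs in the rods of a retina, was below the filter. Cone markers in rods summed to 221 to 665 CPM in Infancy and 595 to 874 CPM in Senile, and PDE6H, a cone phosphodiesterase subunit, was higher in senile rods by 2.18 ± 0.44 (adjusted p = 0.0268). The part of cone RNA in the rod values was not tested.

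Whether the stage difference was unequal in rods and cones was tested as an interaction over 9119 features, of which 0.11% passed. No member did, with RCVRN at -0.18 ± 0.21 (edgeR adjusted p = 0.923), GUCY2D at -0.22 ± 0.29 (adjusted p = 0.938), RGS9 at -0.06 ± 0.20 (adjusted p = 0.995) and RGS9BP at -0.81 ± 0.44 (adjusted p = 0.751). In BCs no member passed between Senile and Infancy either, although with no filter on low counts RCVRN (adjusted p = 0.000972) and RGS9 (adjusted p = 7.85e-05) did. GUCY2D and RGS9 rested there on medians of 3.95 and 16.8 CPM, with the highest values of both genes in Senile 2 (31.5 and 75.0 CPM) and Senile 3 (11.9 and 55.5 CPM). RGS9BP in BCs held 7.07 to 18.7 CPM in Infancy, 10.6 to 18.8 CPM in Mature and 9.55 to 17.7 CPM in Senile, so the stages covered the same range (adjusted p = 0.964).

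Over all barcodes that passed, with no gate, RCVRN was 139, 111, 83.3, 135 and 67.7 CPM in Infancy 1 to 5, 177, 126, 157, 117 and 135 CPM in Mature 1 to 5 and 183, 214, 386, 270 and 287 CPM in Senile 1 to 5. Every senile retina lay above every infant and every mature retina. Senile against Infancy was 268 ± 78.3 against 107 ± 31.3 CPM (n = 5 each), and Senile against Mature 268 ± 78.3 against 142 ± 24.5 CPM. Both reached the smallest unadjusted p that 5 against 5 retinas allow (0.00794, exact permutation test). The adjustment over all features with a mean of at least 10 CPM was made on counts over all barcodes, not only those that passed. There neither passed (adjusted p = 0.297 and 0.98, exact permutation test), while 8.74% and 4.16% of features lay below 0.05 before adjustment and 0% passed. A feature at the smallest p passes only if a large share of all features reach it too. With 5 against 5 retinas these adjusted values thus cannot decide whether RCVRN differs. After thinning, the share of nuclei with a RCVRN UMI was higher in Senile by 12.7 percentage points than in Infancy and by 9.85 points than in Mature. Counted over all barcodes, among the 10031 and 10000 features with a mean of at least 10 CPM, 2.67% and 0.77% did not overlap in these comparisons, and 2.4% and 0.61% were higher in all senile retinas. Cones made up 6.79 to 12.5% of the nuclei of infant, 2.69 to 27.4% of mature and 10.1 to 22.7% of senile retinas. The senile retinas with the highest RCVRN, Senile 3 to 5, held 10.1 to 12.5% cones, within the infant range. Of their RCVRN UMIs, 74.6, 59.5 and 61.9% lay outside gated cones and rods, nuclei without a class included, against 25.9 to 41.6% in Infancy, 22.1 to 77.1% in Mature and 25.3 and 37.3% in Senile 1 and 2. In whole retinas the number of cells and the RNA in each cannot be told apart. Within the label 5.0.1 RCVRN was 83.3 to 139 CPM in Infancy and 183 to 214 CPM in Senile, and within 7.0.1 67.7 to 135 and 270 to 386 CPM.

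The other members were less distinct in whole retinas. Here too the means cover the barcodes that passed, and the adjusted p-values come from counts over all barcodes. These adjusted p-values cannot decide whether a member differs, for the reason given above. RGS9BP was 29.4 ± 3.95 CPM in Senile and 21.5 ± 4.89 CPM in Infancy (adjusted p = 0.434, exact permutation test). GUCY2D was 58.5 ± 47.6 and 30.1 ± 17.4 CPM (adjusted p = 0.888) and RGS9 218 ± 74.4 and 187 ± 50.3 CPM (adjusted p = 0.946), both by the exact permutation test. GUCA1C was 0.164 and 0.0847 CPM, on 2 to 8 UMIs in a library, too few to read a difference from.

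The pathway around the members was read from lists of named genes. Of 7 RGS9 partners and relatives, 4 were tested between rods and cones, 3 were lower and 1 higher in rods, where 21.1% and 21.3% of all features were. GNB5, the obligate partner of RGS9, was lower in rods by -0.54 ± 0.09 (edgeR adjusted p = 1.48e-05), with medians of 215 CPM in cones and 151 CPM in rods, and so followed RGS9BP and not RGS9. RGS7 and RGS11, R7 relatives of RGS9 that serve the ON bipolar cascade, were lower by -0.78 ± 0.11 and -1.08 ± 0.11, and RGS7BP, a relative of RGS9BP, was higher by 0.49 ± 0.19 (adjusted p = 0.0367). The median log2 fold change of these genes was -0.66, against 0.01 over all features tested.

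Among 10 relatives of recoverin in the neuronal calcium sensor family, 6 were tested, 3 were higher in rods and 1 was lower, against 21.3% and 21.1% of all features. HPCAL1 shared the direction of RCVRN, lower in rods by -1.28 ± 0.10 (edgeR adjusted p = 3.37e-11). KCNIP4, KCNIP1 and VSNL1, sensors tied to potassium channels or membrane traffic, were higher by 1.29 ± 0.22, 0.91 ± 0.25 and 0.82 ± 0.16. All 3 were highest outside the photoreceptors, KCNIP4 with medians of 2941 CPM in ACs, 400 CPM in rods and 133 CPM in cones, KCNIP1 with 1001, 78.9 and 36.4 CPM, and VSNL1 with 299 CPM in RGCs, 55.4 CPM in rods and 30.6 CPM in cones. Some marker lists of other classes were also higher in rods than in cones, with infant medians of 157 against 101 CPM for AC markers and 758 against 245 CPM for BC markers. Müller markers went the other way, with 87.5 against 104 CPM. The BC list includes PRKCA, with medians over retinas of 391 CPM in rods, 336 CPM in BCs and 21.1 CPM in cones. The part of RNA from other classes in the genes higher in rods was not tested. Of 6 other guanylate cyclase genes, 2 were tested, and GUCY1A2, a subunit of the soluble cyclase that answers to nitric oxide, was higher in rods by 0.95 ± 0.18 (adjusted p = 6.34e-05) while GUCY1B1 did not pass (-0.02 ± 0.12). Of the genes that handle the cyclase and the phosphodiesterase, RD3 was not among the feature names, AIPL1, TULP1 and HSP90AA1 were listed at 0, UNC119 was lower in rods (-0.37 ± 0.09, adjusted p = 0.0022) and PDE6D did not pass (0.08 ± 0.07).

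The remaining phototransduction genes that took no part in the gate included the paired exchangers that carry calcium out of the outer segment. SLC24A1, the rod exchanger, was higher in rods by 6.23 ± 0.17 and SLC24A2, the cone exchanger, lower by -4.04 ± 0.11, and SLC24A4 did not pass (0.12 ± 0.22). Of 6 such genes tested 4 were higher and 1 lower in rods, against 21.3% and 21.1% of all features, the others being the rod transducin subunits GNB1 and GNGT1 and the arrestin SAG, with SAG at medians of 3247 CPM in rods and 195 CPM in cones. By stage, no gene of these 5 lists passed in cones (edgeR), in contrasts where 1.83%, 1.37% and 0% of all features did, so nothing is read from this count.

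Over 127 sums of a class in a retina with at least 20 nuclei, and 9168 features, the genes whose levels ran most like a member's were found by Pearson's r on log2(CPM + 1), with no test since sums of a retina share a library. GUCY2D ran with TMEM244 (r = 0.92) and the retinol dehydrogenase RDH8 (r = 0.88). RCVRN ran with AANAT, the enzyme that sets the pace of melatonin synthesis (r = 0.87), with NME2 (r = 0.85) and with PDE6H (r = 0.84). RGS9 ran with ATXN1 (r = 0.89), ATR (r = 0.88) and the disc rim protein PRPH2 (r = 0.87), and RGS9BP with MPP4 (r = 0.81), the synaptic calcium sensor CABP4 (r = 0.81) and RP1L1 (r = 0.80).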

How the data were processed

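Nuclei of 15 tree shrew retinas were sequenced with the 10x Genomics 3′ method, and the authors aligned the reads to TS_3.0 with Cell Ranger and deposited raw UMI counts, 1 matrix per retina. The labels, file headers and methods name different Cell Ranger versions, and the version in the labels was used as a covariate. The limits for a nucleus were above 200 and below 6000 detected genes, with mitochondrial UMIs below 5%. A nucleus took the class whose markers exceeded expectation most (score of at least 2, at least 2 markers), and mixed nuclei were set aside, with no doublet caller. S-cones and L-cones needed at least 2 UMIs of their opsin. Counts were summed per retina and class (at least 10 nuclei) and tested with edgeR 4.0.16 (quasi-likelihood, TMM, filterByExpr, Benjamini-Hochberg adjustment over all features), DESeq2 1.42.0 being an alternative. Differences within retinas on log2(CPM + 1) were tested by exact sign-flip, and stages of whole retinas by exact permutation, all 2-sided, with numpy 2.4.6. These p-values are adjusted over all features with a mean of at least 10 CPM, in place of the planned adjustment over the members alone, a choice made after seeing the data. The scripts were tested on simulated data. Members and lists were chosen with earlier results of these data known. The genes named are all members and features with their names, the genes of 5 pathway lists, the 3 genes most like each member (1 is not reported here), and markers beside a result. Precision is set by nuclei and UMIs, and library totals ran from 13429873 to 58734300 UMIs.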

Additional observations from a re-analysis of the deposited data

Results flagged for a closer look

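LINC-GUCY2D-1, a long non-coding feature named after GUCY2D, enters none of the comparisons and had 2610 UMIs in all barcodes. It was picked out as a signal in data outside the main measurement, with 6.9 to 42.2 CPM in cones and 0 to 36.9 CPM in rods. In the 48 groups of values examined, the rule for a retina far from the others of its stage picked out none, where chance picks out about 5%. Single retinas still stood apart in values given above, such as Senile 5 for GUCA1C-AS-1 in cones.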

How the results depend on the processing

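Low rod numbers (24 to 135 a retina), 5 retinas a stage and the overlap of senile stage with source limit the stage comparisons. Counts of features called moved by over 1.5 times as follows. In cones, Senile against Infancy (294) gave 462 with DESeq2, 915 with no filter and 186 with no covariate, Mature against Infancy (220) 407, 804 and, with the replicate block, 139, and Senile against Mature (0) 67 with DESeq2, 311 with no filter, 1 without LINC-FRMD8-1 and 1 without Mature 4 and Senile 3. In rods, Senile against Infancy (34) gave 70 with DESeq2, 190 with no filter and 15 with no covariate, and Mature against Infancy (10) 35, 146 and 6, 18 with sex in place of the version (Y-linked genes went against the sex given for 9 of 15 retinas), 16 with the replicate block and 30 without Mature 4 and Senile 3. BCs (259) gave 499 with DESeq2 and 935 with no filter, rods against cones (3870) 7295 with no filter, and the interaction (10) 19 with DESeq2, 59 with no filter, 5 with at least 30 nuclei and 6 without Mature 4 and Senile 3. Adjusted over the members alone, 3 members passed between S-cones and L-cones and 3 comparisons of 2 members in whole retinas. Both counts were 0 when adjusted over all features, an alternative chosen after seeing the data, and 0 within either version label, and the second was 0 after thinning. The cause was not tested, except that fewer retinas remain within a label. Whole retinas, 5 against 5, could hardly pass an adjustment over all features. Retinas with the same number were not treated as pairs: 13 of 15 such pairs had a correlation over 0.1 (-0.28 to 0.41), but not Mature 3 with Infancy 3 or Senile 3, while all pairs across stages with the same version label, whatever their number, ranged from -0.19 to 0.63, and 4 of 15 retinas were closest to their own number.

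These differences, none past the threshold, turned direction. GUCY2D turned to -0.069 in cones (Mature against Infancy, no covariate), to -0.055 in cones (Senile against Mature, without Mature 4 and Senile 3), to 0.039 with the replicate block and 0.022 with mixed nuclei kept in rods (Mature against Infancy), to 0.37 percentage points after thinning and 0.026 within 7.0.1 in S-cones, and to -0.033 with a pseudocount of 10 and -0.12 percentage points after thinning between ON and OFF BCs. RGS9BP turned to 0.042 in BCs without Mature 4 and Senile 3, -0.033 between ON and OFF BCs with a pseudocount of 10, and in whole retinas -0.27 (Mature against Infancy, within 7.0.1) and -0.027 (Senile against Mature, within 5.0.1). RGS9 turned to 0.067 in the interaction with 1 more marker, and in whole retinas to -0.35 (Senile against Infancy, within 7.0.1), 1.71 percentage points after thinning and 0.74 within 5.0.1 (both Mature against Infancy).

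Leaving out each retina in turn gave 222 to 307 and 148 to 238 calls in cones (Senile and Mature against Infancy), 0 to 1 for Senile against Mature, 13 to 49 and 3 to 28 in rods, 198 to 294 in BCs, 3585 to 4025 for rods against cones and 4 to 17 for the interaction. Adjusted over the members alone, and not over all features, it gave 2 to 4 calls between S-cones and L-cones and 0 to 3 in whole retinas. In whole retinas RCVRN had values of 1.17 to 1.44 (Senile against Infancy) and 0.73 to 1.00 (Senile against Mature). Under the adjustment over the members alone, RCVRN kept each call in 5 of 15 repeats (exact permutation test, adjusted p up to 0.0595 and 0.0794), without Infancy 4 or Senile 1, 2, 4 or 5. Directions turned for GUCA1C-AS-1 in cones (Senile against Infancy, -0.68 to 0.039) and the interaction (-3.87 to 7.09), for GUCY2D in cones (Senile against Mature, -0.091 to 0.30), S-cones (-0.090 to 0.033), rods (-0.22 to 0.16) and whole retinas (-0.36 to 0.40, both Mature against Infancy), for RCVRN in rods (Mature against Infancy, -0.20 to 0.021), for RGS9 between Mature and Infancy in cones (-0.13 to 0.061), rods (-0.045 to 0.13) and whole retinas (-0.26 to 0.23), in whole retinas between Senile and Mature (-0.044 to 0.45) and in the interaction (-0.16 to 0.086), and for RGS9BP in BCs (-0.22 to 0.049), between ON and OFF BCs (-0.18 to 0.24) and in whole retinas (Mature against Infancy, -0.036 to 0.34).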
